A study of Mus musculus with 18 samples.

Results

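The Hox cluster genes are the 39 genes whose symbol is Hox, a cluster letter from a to d and a number, out of 50686 genes in the count tables. Antisense and other RNAs named after them were left out of the 39. They lie in 4 clusters of the mouse genome (build GRCm38): 11 genes in HoxA (chr6:52155590-52260880, minus strand), 10 in HoxB (chr11:96194316-96368256, plus strand), 9 in HoxC (chr15:102921103-103036852, plus strand) and 9 in HoxD (chr2:74668310-74765142, plus strand). The genes were taken by name and not by their values, though earlier results of these data were known when the set was chosen.

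The cells were E0771, a line from a mouse mammary tumor that models triple-negative breast cancer, into which a firefly luciferase gene had been placed with puromycin selection. Into these cells a retroviral shRNA vector with mCherry was placed, targeting Renilla luciferase, which is not a mouse gene (cntrl), or Cdk8 with 1 of 2 hairpins (shCdk8-1 and shCdk8-2), and mCherry-positive cells were sorted and kept as pools. Each line received DMSO or 1 µM of the CDK8/CDK19 inhibitor Senexin B (SnxB) for 48 h, and 3 RNA-seq libraries were made per line and treatment, 18 in all. The labels do not say whether the 3 libraries of a group came from separate cultures, so p-values measure the spread between these libraries, which may be technical.

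Hox genes encode homeodomain transcription factors that give segments of the body axis their identity. Their order along each cluster follows the order of their expression from head to tail, and genes with the same number in different clusters are paralogs. In adult cells a Hox pattern is held by Polycomb repression and Trithorax activation, mammary epithelium and mesenchyme each express a subset, and Pbx and Meis proteins bind DNA together with Hox proteins. CDK8 and CDK19 are kinases of the Mediator complex, which connects transcription factors with RNA polymerase II.

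The libraries held 16452260 to 22664693 counts, and 3 counts in a library corresponded to 0.130 to 0.185 CPM (counts-per-million with TMM scaling). All 18 libraries carried the same flow cell and lane code in their headers, so there were no sequencing batches to compare. Cdk8 was at 56.1 CPM in cntrl, 21.4 in shCdk8-1 and 38.8 in shCdk8-2 in DMSO (means, n = 3), a fall of 1.38 and of 0.53 on the log2 scale (edgeR, adjusted p = 2.58e-12 and 1.92e-06). Epithelial markers were low. Epcam, Cdh1, Krt8 and Krt18, 4 in all, summed to 0 to 0.392 CPM in the cntrl libraries. The shCdk8 libraries had 7.47 to 14.3, where Krt8 accounted for nearly all of it. Of the basal and mesenchymal list Krt5, Krt14, Trp63 and Vim, only Vim had enough counts to be tested. It stood at 3691 to 4428 CPM (group means). The 7 leukocyte markers summed to 7.05 to 9.54 CPM in the cntrl libraries, mostly Vav1, and to 0.211 to 0.783 in the shCdk8 libraries, with the defining Ptprc at most 0.442 and Cd3e at most 0.0163 CPM as group means. The 3 endothelial markers had group means of 5.23 and 2.97 CPM in cntrl and 6.55 to 16.7 in the shCdk8 lines, with Pecam1 higher and Cdh5 lower there. The 4 fibroblast markers, mostly Pdgfra, summed to 286 to 289 CPM in the cntrl libraries and 239 to 274 in the shCdk8 libraries in DMSO. In SnxB they summed to 330 to 389 and 248 to 312 CPM. Within each treatment the sum of every marker list, the basal and mesenchymal list included, separated cntrl from both shCdk8 lines. Differences between these lines were common. Of all genes tested 59.6% and 57.1% passed an adjusted p of 0.05 (edgeR) in shCdk8-1 and shCdk8-2 against cntrl in DMSO, and 60.6% and 56.6% in SnxB. The part of these marker differences in the Hox differences was not tested.

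The HoxD cluster held most Hox counts in every library, so the windows around the transcription starts of 4 of its genes are shown. They are Hoxd10, Hoxd9 and Hoxd8, which were the main Hox transcripts of the cluster, and Hoxd12, which was near 0 in cntrl. Each window has 300 bases around the RefSeq start (GRCm38.p6, 5′ to 3′), with motif matches in capitals. The motifs searched on both strands were the GC box GGGCGG, the TATA box TATAAA, the CCAAT box CCAAT, the AP-1 site TGACTCA, the E box CACGTG and the retinoic acid receptor motif AGGTCA.
Hoxd12, chr2:74674763-74675062, plus strand: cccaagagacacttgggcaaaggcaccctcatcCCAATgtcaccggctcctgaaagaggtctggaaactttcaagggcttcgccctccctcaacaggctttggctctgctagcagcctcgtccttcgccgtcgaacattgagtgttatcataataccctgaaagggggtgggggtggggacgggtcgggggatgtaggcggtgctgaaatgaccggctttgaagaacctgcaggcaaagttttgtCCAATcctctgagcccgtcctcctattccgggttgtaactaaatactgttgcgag
Hoxd10, chr2:74691641-74691940, plus strand: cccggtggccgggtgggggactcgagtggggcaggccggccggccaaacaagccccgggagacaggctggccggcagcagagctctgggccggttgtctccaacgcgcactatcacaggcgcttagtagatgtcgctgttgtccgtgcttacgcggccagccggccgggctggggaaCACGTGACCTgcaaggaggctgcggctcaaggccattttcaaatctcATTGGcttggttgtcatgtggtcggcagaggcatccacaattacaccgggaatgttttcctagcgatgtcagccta
Hoxd9, chr2:74697513-74697812, plus strand: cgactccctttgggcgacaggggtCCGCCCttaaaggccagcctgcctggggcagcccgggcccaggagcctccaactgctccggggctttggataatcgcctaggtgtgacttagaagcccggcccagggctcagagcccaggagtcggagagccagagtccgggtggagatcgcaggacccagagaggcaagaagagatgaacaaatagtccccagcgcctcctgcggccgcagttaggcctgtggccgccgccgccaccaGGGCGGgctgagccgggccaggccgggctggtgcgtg
Hoxd8, chr2:74704365-74704664, plus strand: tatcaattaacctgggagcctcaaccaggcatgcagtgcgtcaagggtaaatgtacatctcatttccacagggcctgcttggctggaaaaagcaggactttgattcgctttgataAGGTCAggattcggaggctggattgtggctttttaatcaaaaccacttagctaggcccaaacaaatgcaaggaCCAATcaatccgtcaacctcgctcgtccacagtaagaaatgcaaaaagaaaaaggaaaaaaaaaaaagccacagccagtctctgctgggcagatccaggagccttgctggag
Of 32851 RefSeq windows of this length, 35.7% held the GC box, 13.6% the TATA box, 37.4% the CCAAT box, 5.20% the AP-1 site, 7.15% the E box and 16.3% the receptor motif. Hoxd9 had 2 GC boxes and 20 CpG dinucleotides, Hoxd10 had a CCAAT box, an E box and a receptor motif with 22 CpG, and Hoxd8 had a CCAAT box and a receptor motif with 6 CpG. In Hoxd10 the E box and the receptor motif overlap in 1 run of capitals. Hoxd12 had 2 CCAAT boxes and 13 CpG, and the median over all windows was 7. The matches are descriptions of the letters in these windows.

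Few Hox genes accounted for the Hox RNA of E0771 cells. In cntrl cells in DMSO, in CPM per kilobase of exon (RPKM), Hoxd9 was at 24.4 ± 0.775 (SD, n = 3), Hoxd10 at 22.5 ± 0.851, Hoxc10 at 19.3 ± 0.822 and Hoxd8 at 13.7 ± 0.652. These 4 genes took 78.3% to 83.9% of all Hox counts in a library. The libraries of each of the 4 did not overlap those of the next in this order. Over exon bases shared with no other gene Hoxd10 would be at 23.9 RPKM, within the 23.7 to 25.3 of the Hoxd9 libraries, so the order of these 2 genes depends on the length used.

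Next came Hoxa10 at 3.59 ± 0.187 RPKM (SD, n = 3) and Hoxb13 at 2.70 ± 0.341. The libraries of both did not overlap those of their neighbours in the order. The median RPKM over the 12772 genes tested was 7.64, so these genes lay below the middle and the 4 leading genes above it. Hoxb6 (1.77 RPKM) and Hoxc6 (1.41) overlapped in their libraries, as did Hoxc4 (1.11) and Hoxb3 (0.773). Hoxc9, Hoxb5, Hoxd4, Hoxc8 and Hoxc5 stood at 0.558 to 0.229 RPKM and each overlapped the next, and Hoxa9 and Hoxb4 followed at 0.168 and 0.127. Of the exon bases 62.3% of Hoxd3 and 52.3% of Hoxd4 are shared with each other or Gm28230 on the same strand, so their counts are uncertain. Over the exon bases it shares with no other gene Hoxd4 would be at 0.856 RPKM, on counts that may already leave out reads of the shared bases. Hoxc10 and Hoxc5 share 8.70% and 5.37% of their bases, and Hoxd10 shares 5.73% with Gm28309.

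**Figure D1:**
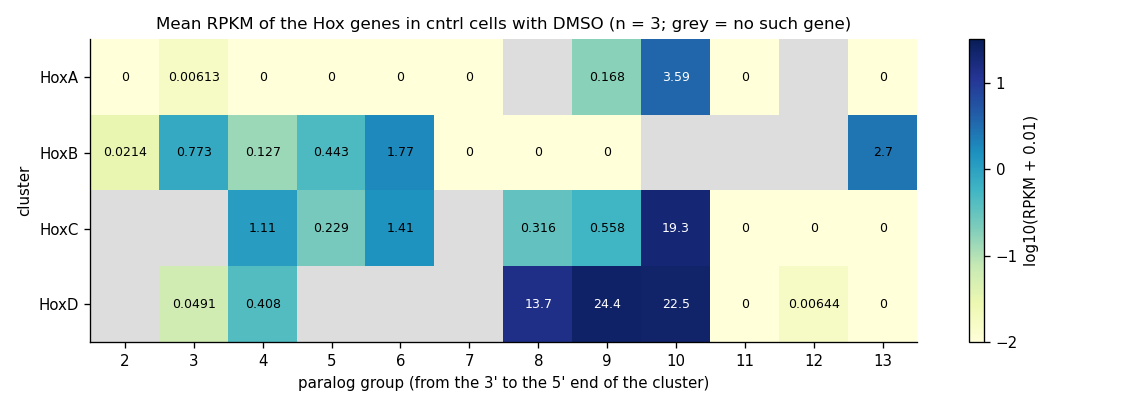
Mean RPKM (n = 3) of the Hox genes of paralog groups 2 to 13 in cntrl cells in DMSO, by cluster (rows) and paralog group (columns), with colour on a log10 scale of RPKM + 0.01 and grey where the mouse has no such gene. High values stand at paralog groups 8 to 10 of HoxD and 10 of HoxC and HoxA, the neighbouring groups 11 to 13 are at or near 0 in these clusters, and Hoxb13 stands alone at the end of HoxB.

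By position, most Hox counts came from the middle and later part of the clusters. Paralog groups 9 and 10 held 73.5% of all Hox counts over the 18 libraries, groups 4 to 8 held 21.6%, groups 1 to 3 held 1.85% and groups 11 to 13 held 3.04%, of which Hoxb13 was 2063 of 2144 counts. Hoxa11 and Hoxd13 had 0 counts in every library, Hoxa13, Hoxc11, Hoxc12 and Hoxc13 had 1 count each over all libraries, and Hoxd11 had 3. Hoxb13, a gene known from the prostate and the tail end of the embryo, had 83 to 143 counts in every library, while Hoxb7, Hoxb8 and Hoxb9, the next genes of the same cluster, had 0 in every library. Hoxb3 to Hoxb6 on the other side of that gap had 3 to 80 counts per library. In HoxA only Hoxa9 (10 to 30 counts) and Hoxa10 (184 to 313) passed the low-count filter.

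In all, 8 of the 39 genes had 0 counts in all 18 libraries (Hoxa4, Hoxa6, Hoxa11, Hoxb1, Hoxb7, Hoxb8, Hoxb9 and Hoxd13). A count of 0 in a library allows up to 0.130 to 0.185 CPM, counting error alone. Another 14 had some counts and did not pass the filter, of which Hoxa2, Hoxa5, Hoxa7, Hoxa13, Hoxb2, Hoxc11, Hoxc12, Hoxc13, Hoxd1 and Hoxd11 had at most 3 counts in any library. Hoxa3, Hoxd3 and Hoxd12 reached 10, 10 and 11. The 17 genes that passed were Hoxa9, Hoxa10, Hoxb3, Hoxb4, Hoxb5, Hoxb6, Hoxb13, Hoxc4, Hoxc5, Hoxc6, Hoxc8, Hoxc9, Hoxc10, Hoxd4, Hoxd8, Hoxd9 and Hoxd10. The filter keeps a gene that is high in any 1 group.

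The total Hox signal varied little between the groups. Summed over the 39 genes it was 195 to 215 CPM in every library, with group means from 198 ± 3.02 CPM in shCdk8-1 in DMSO to 213 ± 1.86 in shCdk8-2 in SnxB (SD, n = 3). HoxD held 57.8% to 66.8% of the Hox counts, HoxC 19.6% to 28.0%, HoxA 6.01% to 8.97% and HoxB 4.83% to 8.14%. The share of HoxD was lowest in the shCdk8-1 libraries, at 57.8% to 59.1% in DMSO and 59.0% to 59.4% in SnxB, below every library of the other lines.

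Whether lowering Cdk8 changes Hox expression was asked with shCdk8-1 and shCdk8-2 against cntrl in DMSO. The same 4 genes led in all lines, but not in the same order. In shCdk8-1 Hoxc10 had the highest mean RPKM, with libraries that overlapped those of Hoxd9 and lay above those of Hoxd10. In shCdk8-2 the order of the means was that of cntrl. Hoxd12, which did not pass the low-count filter, had more counts in both shCdk8 lines than in cntrl, as given below. None of the 17 tested genes passed an adjusted p of 0.05 with a change above 2-fold (edgeR's quasi-likelihood test, Benjamini-Hochberg over 12772 genes). Smaller shifts passed the adjusted p alone. Hoxd8, Hoxd9 and Hoxd10 were lower in shCdk8-1, Hoxc10 was higher in both shCdk8 lines, and Hoxc4 and Hoxc6 moved in opposite directions in shCdk8-2.

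In shCdk8-1 against cntrl in DMSO, 0 of 17 Hox genes were called at 2-fold, against 12.5% of all genes tested. At the adjusted p alone 4 of 17 passed, against 59.6% of all genes, and 6 of 17 had an unadjusted p under 0.05. DESeq2 also called 0 at 2-fold. The 95% interval of the fold change stayed within 2-fold for 16 of the 17, and the median log2 fold change was 0.02 against 0.01 over all genes.

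Hoxd8 (ENSMUSG00000027102.4, chr2:74704615-74707933) was at 39.5, 36.8 and 36.1 CPM in cntrl, at 31.1, 29.7 and 30.7 in shCdk8-1 and at 33.6, 34.6 and 34.1 in shCdk8-2, all in DMSO. The 3 groups did not overlap, with cntrl highest and shCdk8-1 lowest. Its log2 fold change was -0.30 ± 0.05 (SE) in shCdk8-1 (adjusted p = 3.75e-05) and -0.13 ± 0.05 in shCdk8-2 (adjusted p = 0.0262), and shCdk8-2 was above shCdk8-1 by 0.16 (adjusted p = 0.0268).

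Hoxd10 (ENSMUSG00000050368.4, chr2:74691924-74695105) was at 40.4, 42.7 and 39.8 CPM in cntrl, 36.7, 35.0 and 36.7 in shCdk8-1 and 43.2, 41.4 and 41.8 in shCdk8-2. The shCdk8-1 libraries lay below all others, while those of shCdk8-2 overlapped cntrl. Hoxd10 fell by 0.18 in shCdk8-1 on the log2 scale (adjusted p = 0.00157), and in shCdk8-2 the difference was 0.04 with an interval of -0.05 to 0.13. The shCdk8-2 line was above shCdk8-1 by 0.22 (adjusted p = 9.73e-04).

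Hoxd9 (ENSMUSG00000043342.9, chr2:74697727-74700208) was at 50.7, 54.0 and 52.0 CPM in cntrl and at 46.6, 48.2 and 47.9 in shCdk8-1, and at 54.7, 50.4 and 49.7 in shCdk8-2. It fell by 0.14 in shCdk8-1 on the log2 scale (adjusted p = 0.0122). Without cntrl replicate 2 or shCdk8-1 replicate 1 this adjusted p rose to 0.0652 and 0.0629, and without the low-count filter to 0.0974. Hoxd8, Hoxd9 and Hoxd10 are neighbours on 1 strand. In a pool of cells a lower level in fewer cells and less RNA per cell cannot be told apart.

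Hoxc10 (ENSMUSG00000022484.7, chr15:102966796-102971893) was at 37.2, 35.0 and 38.1 CPM in cntrl, 45.3, 45.0 and 41.5 in shCdk8-1 and 41.6, 41.2 and 38.6 in shCdk8-2. Both shCdk8 lines lay above cntrl. The gene rose by 0.26 ± 0.05 (SE) on the log2 scale in shCdk8-1 (adjusted p = 3.71e-04) and by 0.14 ± 0.05 in shCdk8-2 (adjusted p = 0.0342), opposite in direction to its paralog Hoxd10 in shCdk8-1. Hoxa10, the other gene of paralog group 10 and the highest of HoxA, was at 11.3, 11.4 and 12.4 CPM in cntrl, 13.1, 11.2 and 15.4 in shCdk8-1 and 13.0, 13.6 and 12.6 in shCdk8-2. The shCdk8-1 libraries overlapped cntrl. It had log2 fold changes of 0.17 and 0.16, with intervals of -0.05 to 0.40 and -0.07 to 0.38, and did not pass.

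In shCdk8-2 against cntrl in DMSO, 0 of 17 Hox genes were called at 2-fold by edgeR and by DESeq2, against 11.0% of all genes tested. At the adjusted p alone 4 of 17 passed, against 57.1% of all genes, and 5 of 17 had an unadjusted p under 0.05. Intervals within 2-fold were found for 15 of the 17. The 4 that passed were Hoxd8 and Hoxc10, given above, and Hoxc4 and Hoxc6.

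Hoxc4, which lies at the head end of HoxC, was at 3.02, 3.25 and 2.25 CPM in cntrl, 3.62, 3.19 and 3.77 in shCdk8-1 and 3.61, 3.72 and 3.89 in shCdk8-2. Hoxc6 was at 3.39, 3.63 and 3.18 CPM in cntrl, 2.91, 2.73 and 2.01 in shCdk8-1 and 2.65, 1.63 and 2.68 in shCdk8-2. Both shCdk8 lines lay below cntrl for Hoxc6, and for Hoxc4 the shCdk8-2 libraries lay above cntrl. In shCdk8-2 Hoxc4 rose by 0.41 ± 0.13 (SE, adjusted p = 0.0129) and Hoxc6 fell by 0.54 on the log2 scale (SE 0.19, adjusted p = 0.0196). In shCdk8-1 the log2 fold changes were 0.33 for Hoxc4 (adjusted p = 0.0503) and -0.41 for Hoxc6 (adjusted p = 0.0691), and neither passed.

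The ratio of Hoxc4 to Hoxc6 counts, which does not depend on library scaling and was chosen after the values were seen, was 0.708 to 0.896 in cntrl in DMSO and 0.763 to 0.940 in cntrl in SnxB. It was 1.17 to 2.28 in the 12 shCdk8 libraries of both lines, all above the 6 cntrl libraries. It rests on 32 to 83 counts of each gene per library.

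The shCdk8-2 calls depended on single libraries and, for 3 of the 4 genes, on the method. For Hoxd8 the adjusted p was 0.110, 0.0679 and 0.0580 without cntrl replicate 1, shCdk8-2 replicate 1 and shCdk8-2 replicate 3. It was 0.0513 with DESeq2, 0.105 with scaling by library totals, 0.180 without the low-count filter and 0.0574 with only the groups compared in the fit. For Hoxc10 it was 0.0742, 0.192, 0.151 and 0.104 without cntrl replicates 1 and 2 and shCdk8-2 replicates 1 and 2, and 0.0781 with DESeq2 and 0.103 without the filter. Hoxc4 was at 0.204 without cntrl replicate 3, where its log2 fold change was 0.25, and at 0.0658 with DESeq2, and Hoxc6 at 0.0631 and 0.117 without cntrl replicate 2 and shCdk8-2 replicate 2. In shCdk8-1 the calls of Hoxd8, Hoxd10 and Hoxc10 held without each of the 6 libraries in turn. In turn Hoxc4 in shCdk8-1 came under 0.05 without cntrl replicate 2 (0.0215) or shCdk8-1 replicate 2 (0.0359) or with library totals (0.0354), Hoxc6 without shCdk8-1 replicate 1 (0.0474) and Hoxa10 without shCdk8-1 replicate 2 (0.0352). Hoxb6 in shCdk8-2 did so without cntrl replicate 3 (0.0339), without the filter (0.00863) and with only the groups compared (0.0164).

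**Figure D2:**
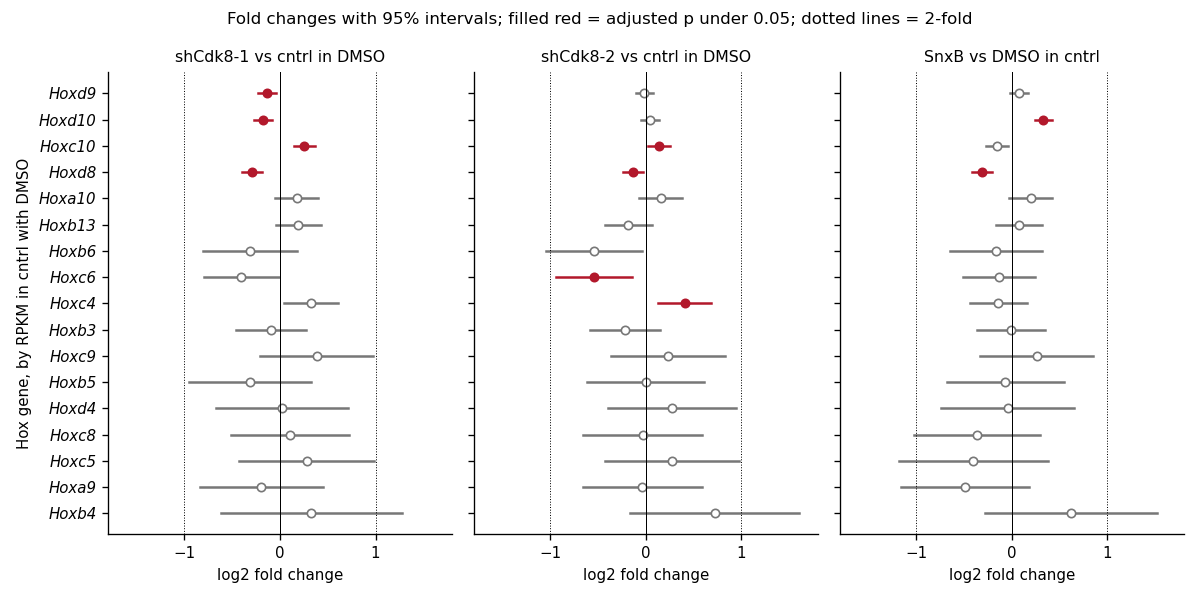
Log2 fold changes (points) with 95% intervals (bars) of the 17 tested Hox genes, ordered by RPKM, for the 2 shRNAs and for SnxB in cntrl cells, filled red where the adjusted p was under 0.05, with dotted lines at 2-fold. All 17 points lie between the dotted lines in each panel, and the genes with the highest levels have the narrowest intervals.

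The 2 shRNA lines were compared with each other in DMSO, where 0 of 17 Hox genes were called at 2-fold by edgeR and by DESeq2, against 2.17% of all genes. At the adjusted p alone 3 of 17 passed, against 21.1% of all genes, and 5 of 17 had an unadjusted p under 0.05. Besides Hoxd8 and Hoxd10 the third was Hoxb13, at 6.71, 6.78 and 6.92 CPM in shCdk8-1 and 5.22, 5.15 and 5.37 in shCdk8-2, with cntrl at 6.46, 5.09 and 6.32. It was lower in shCdk8-2 than in shCdk8-1 by a log2 difference of -0.37 (adjusted p = 0.0225), and the cntrl libraries overlapped those of shCdk8-2. This Hoxb13 call was lost without shCdk8-1 replicate 3 (0.0597) and without shCdk8-2 replicate 1 (0.0640), 2 (0.0587) or 3 (0.0501). The Hoxd8 call was lost without each of the 6 libraries, with adjusted p-values from 0.0557 to 0.116, with DESeq2 (0.0775) and without the filter (0.161). Hoxd9 came under 0.05 with library totals (0.0436). Hoxd10 kept its call without each of them. Cdk8 was also higher in shCdk8-2 than in shCdk8-1, and the 2 shRNAs are different pools of cells, so knockdown strength and pool cannot be told apart.

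The question of what the kinase inhibitor does was addressed with SnxB against DMSO within each line. In cntrl cells Hoxd10 rose and Hoxd8 fell, and the others did not pass. Of 17 Hox genes 0 were called at 2-fold by edgeR and by DESeq2, against 0.305% of all genes. At the adjusted p alone 2 of 17 passed, against 5.54% of all genes, and 3 of 17 had an unadjusted p under 0.05. The intervals of 13 of the 17 stayed within 2-fold.

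Hoxd10 in cntrl was at 40.4, 42.7 and 39.8 CPM in DMSO and at 52.2, 52.1 and 50.1 in SnxB. Hoxd8 was at 39.5, 36.8 and 36.1 CPM in DMSO and at 30.8, 30.3 and 29.5 in SnxB. The libraries of both treatments were apart for each gene, in opposite directions. The log2 fold changes were 0.33 ± 0.04 for Hoxd10 (SE, adjusted p = 5.20e-05) and -0.31 ± 0.05 for Hoxd8 (adjusted p = 4.84e-04), and both held without each of the 6 libraries in turn. Hoxd9, which lies between them, had a log2 fold change of 0.07 with an interval of -0.02 to 0.17.

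The ratio of Hoxd10 to Hoxd8 counts in a library, chosen after the values were seen, was 1.02 to 1.16 in cntrl in DMSO and 1.70 to 1.72 in cntrl in SnxB. In shCdk8-1 it was 1.18 to 1.20 and 1.51 to 1.57, and in shCdk8-2 it was 1.20 to 1.28 and 1.70 to 1.91. In each of the 3 lines every SnxB library lay above every DMSO library. The ratio does not depend on library scaling.

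In shCdk8-1 cells SnxB gave 0 of 17 calls at 2-fold by edgeR and by DESeq2, against 0.110% of all genes, and 1 of 17 passed at the adjusted p alone, against 1.48% of all genes. The 1 gene was Hoxd10, at 36.7, 35.0 and 36.7 CPM in DMSO and 39.7, 41.5 and 41.7 in SnxB, with a log2 fold change of 0.18 (adjusted p = 0.0466). Its groups did not overlap. The adjusted p was 0.115, 0.208 and 0.0911 without shCdk8-1 DMSO replicates 1, 2 and 3, and 0.146 and 0.178 without shCdk8-1 SnxB replicates 2 and 3. DESeq2 gave 0.110, its size factors in edgeR 0.0569, no filter 0.219, the replicate number as a block 0.0648 and only the groups compared 0.268. Hoxd8 was at 31.1, 29.7 and 30.7 CPM in DMSO and 25.3, 27.1 and 27.6 in SnxB, also without overlap, with a log2 fold change of -0.20 (adjusted p = 0.0675). At an unadjusted p under 0.05 there were 2 of 17.

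In shCdk8-2 cells SnxB gave 0 of 17 calls at 2-fold by edgeR and by DESeq2, against 0.125% of all genes, 2 of 17 passed at the adjusted p alone, against 2.05% of all genes, and 4 of 17 had an unadjusted p under 0.05. Hoxd10 was at 43.2, 41.4 and 41.8 CPM in DMSO and 53.4, 49.8 and 51.5 in SnxB, a log2 rise of 0.29 (adjusted p = 4.30e-04). Hoxd8 was at 33.6, 34.6 and 34.1 CPM in DMSO and 27.9, 28.6 and 30.2 in SnxB, a log2 fold change of -0.24 (adjusted p = 0.0135). The groups were apart for both genes. The Hoxd10 call held without each of the 6 libraries, and that of Hoxd8 was lost without shCdk8-2 DMSO replicates 2 (0.0822) and 3 (0.0604) and without shCdk8-2 SnxB replicates 1 (0.104) and 2 (0.0845), and without the low-count filter (0.0520). Hoxd9, at an adjusted p of 0.0638, came under 0.05 without shCdk8-2 DMSO replicate 1 (0.0284).

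Whether SnxB acted differently in the knockdown lines was tested as an interaction. For shCdk8-1 against cntrl 0 of 17 Hox genes passed, against 0.0391% of all genes called at 2-fold and 0.305% at the adjusted p alone, and 1 had an unadjusted p under 0.05. That was Hoxd10, whose SnxB effect in shCdk8-1 minus that in cntrl was -0.15 on the log2 scale, with an interval of -0.28 to -0.02 (adjusted p = 0.450). For shCdk8-2 against cntrl 0 of 17 passed, against 0.0157% and 0.0548% of all genes, and 0 had an unadjusted p under 0.05. The Hoxd10 interval there was -0.17 to 0.09 and that of Hoxd8 was -0.08 to 0.22. DESeq2 called 0 in both tests.

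**Figure D3:**
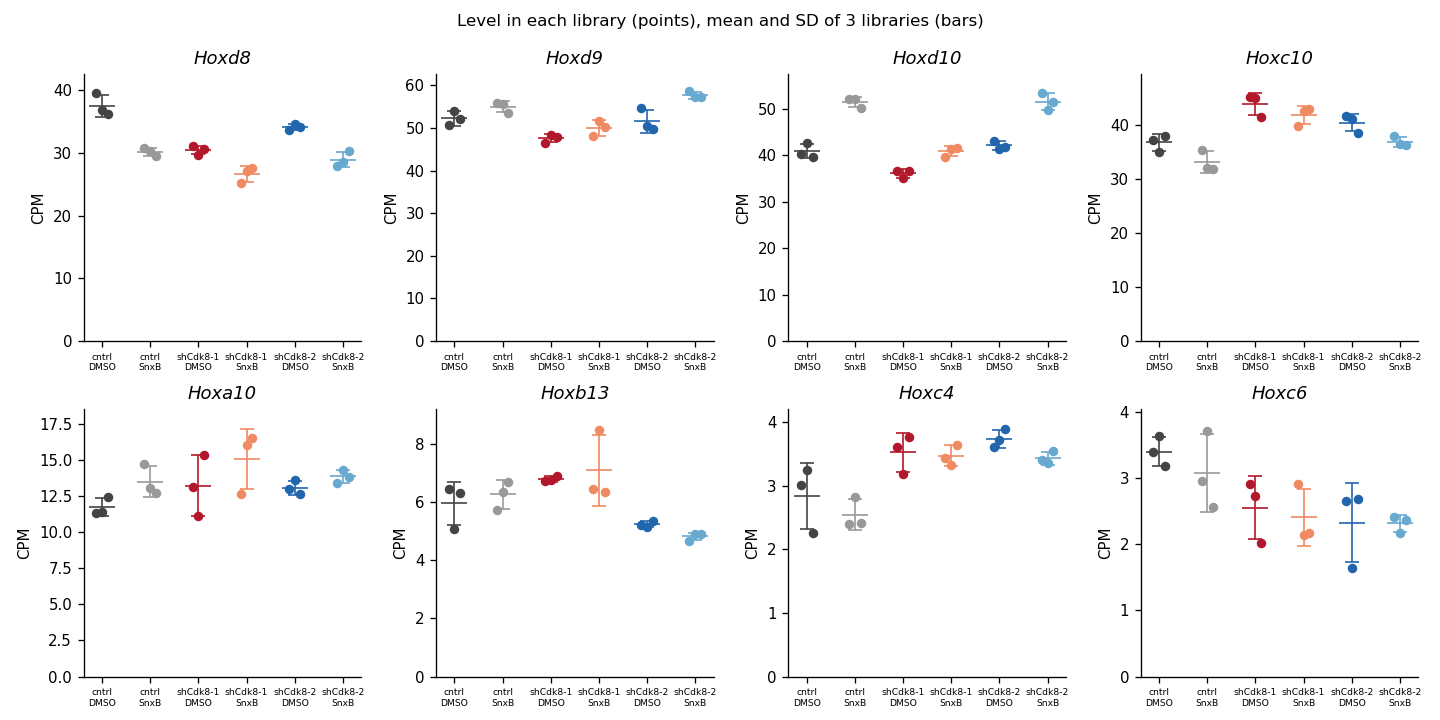
CPM of 8 Hox genes in each library (points) of the 6 groups, with the mean and SD of 3 libraries (bars), on axes that start at 0. With SnxB every Hoxd10 library is higher and every Hoxd8 library lower than with DMSO in each line, and Hoxc10 is higher in every shCdk8 library than in cntrl at the same treatment.

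With SnxB in both arms, shCdk8-1 against cntrl gave 0 of 17 calls at 2-fold by edgeR and by DESeq2, against 12.8% of all genes, 5 of 17 at the adjusted p alone, against 60.6%, and 6 of 17 at an unadjusted p under 0.05. Hoxd10 was at 52.2, 52.1 and 50.1 CPM in cntrl and 39.7, 41.5 and 41.7 in shCdk8-1, a log2 fold change of -0.33 (adjusted p = 1.30e-06), with wide separation between the groups. Hoxc10 rose by 0.34 (adjusted p = 2.11e-05), Hoxc4 rose by 0.44 (adjusted p = 0.00937), Hoxd8 fell by 0.18 (adjusted p = 0.00566) and Hoxd9 fell by 0.14 (adjusted p = 0.0104) on the log2 scale. The calls of Hoxd10, Hoxc10 and Hoxc4 held without each of the 6 libraries, and without shCdk8-1 SnxB replicate 1 those of Hoxd8 (0.0508) and Hoxd9 (0.0803) were lost, as was that of Hoxd9 with library totals (0.104). Hoxa9 was just outside, with a log2 fold change of 0.72 (adjusted p = 0.0528). It came under 0.05 without cntrl SnxB replicate 3 (0.0245) and without shCdk8-1 SnxB replicates 2 (0.0447) or 3 (0.0174) and with library totals (0.0392), and had 30, 15 and 14 counts in shCdk8-1 against 12, 10 and 17 in cntrl. Hoxa10 did so without shCdk8-1 SnxB replicate 1 (0.0204).

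With SnxB, shCdk8-2 against cntrl gave 0 of 17 calls at 2-fold by edgeR and by DESeq2, against 10.8% of all genes, 3 of 17 at the adjusted p alone, against 56.6%, and 4 of 17 at an unadjusted p under 0.05. Hoxb13 fell by 0.38 on the log2 scale (adjusted p = 0.00949), from 5.74, 6.35 and 6.71 CPM to 4.68, 4.89 and 4.90. Hoxc4 rose by 0.42 (adjusted p = 0.0143) and Hoxc10 rose by 0.16 (adjusted p = 0.0186). Without cntrl SnxB replicate 3 the Hoxb13 call was lost (0.0535), without cntrl SnxB replicate 1 that of Hoxc4 (0.0536), and without cntrl SnxB replicates 2 and 3 and shCdk8-2 SnxB replicate 1 that of Hoxc10 (0.0863, 0.0530 and 0.0622). Without the low-count filter those of Hoxc4 (0.0605) and Hoxc10 (0.115) were lost, and with DESeq2 that of Hoxc4 (0.0560). Hoxd9 came under 0.05 with library totals (0.0167). Hoxc6 (-0.42, adjusted p = 0.0759) came under 0.05 without cntrl SnxB replicate 3 (0.0413) and Hoxc5 (0.62, adjusted p = 0.155) without shCdk8-2 SnxB replicate 2 (0.0405).

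Between the shCdk8 lines in SnxB 0 of 17 were called at 2-fold by edgeR and by DESeq2, against 2.10% of all genes, 4 of 17 passed at the adjusted p alone, against 20.9%, and 5 of 17 had an unadjusted p under 0.05. Hoxb13 was at 6.45, 8.50 and 6.34 CPM in shCdk8-1 and 4.68, 4.89 and 4.90 in shCdk8-2, with no overlap and a log2 difference of -0.55 (adjusted p = 0.00193). Hoxd10 was higher in shCdk8-2 by 0.33 (adjusted p = 1.12e-05) and Hoxd9 by 0.21 (adjusted p = 0.00184), while Hoxc10 was lower, at -0.18 (adjusted p = 0.0237). The calls of Hoxb13, Hoxd10 and Hoxd9 held without each of the 6 libraries. That of Hoxc10 was lost without shCdk8-1 SnxB replicates 2 (0.0658) and 3 (0.0929) and shCdk8-2 SnxB replicates 2 (0.0763) and 3 (0.0878), without the low-count filter (0.0880) and with only the groups compared (0.0512). The comparisons in DMSO share their cntrl libraries, and so do those in SnxB, so their values are given side by side and not as independent results.

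Among the genes below the filter, Hoxd12 was near 0 in cntrl and had counts in every shCdk8 library. It had 0, 0 and 1 counts in cntrl in DMSO, 6, 3 and 5 in shCdk8-1 and 5, 4 and 5 in shCdk8-2. In SnxB it had 0, 0 and 2 counts in cntrl, 11, 10 and 5 in shCdk8-1 and 8, 6 and 3 in shCdk8-2. The 12 shCdk8 libraries did not overlap the 6 cntrl libraries. Its highest group mean was 0.191 RPKM, in shCdk8-1 in SnxB, below that of Hoxa10 or Hoxb13. It was singled out after its values were seen, as were Hoxa3, Gm14396 and Hoxd3os1.

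From summed counts scaled by library size, Hoxd12 in DMSO was 13.3-fold higher in shCdk8-1 than in cntrl (95% counting interval 2.02 to 560) and 12.7-fold higher in shCdk8-2 (1.93 to 536). In SnxB the ratios were 14.2 (3.56 to 124) and 9.21 (2.19 to 82.2). The intervals are exact, cover counting error only and rest on 1 and 2 counts in cntrl. In edgeR without the filter (27330 genes) the adjusted p was 0.00534, 0.00715, 3.72e-05 and 0.00312, and Hoxd12 was called at 2-fold in all 4 comparisons, against 7.22%, 6.27%, 7.53% and 6.17% of genes called in that fit.

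Hoxa3, toward the head end of HoxA, passed in that fit in 1 comparison only, shCdk8-1 against cntrl in SnxB (adjusted p = 0.0245). It had 0, 1 and 3 counts in cntrl and 7, 1 and 10 in shCdk8-1 in SnxB, with overlap. Hoxd3 had 1 to 10 counts per library and the ratios between groups, 0.696 to 1.58, had intervals that include 1.

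**Figure D4:**
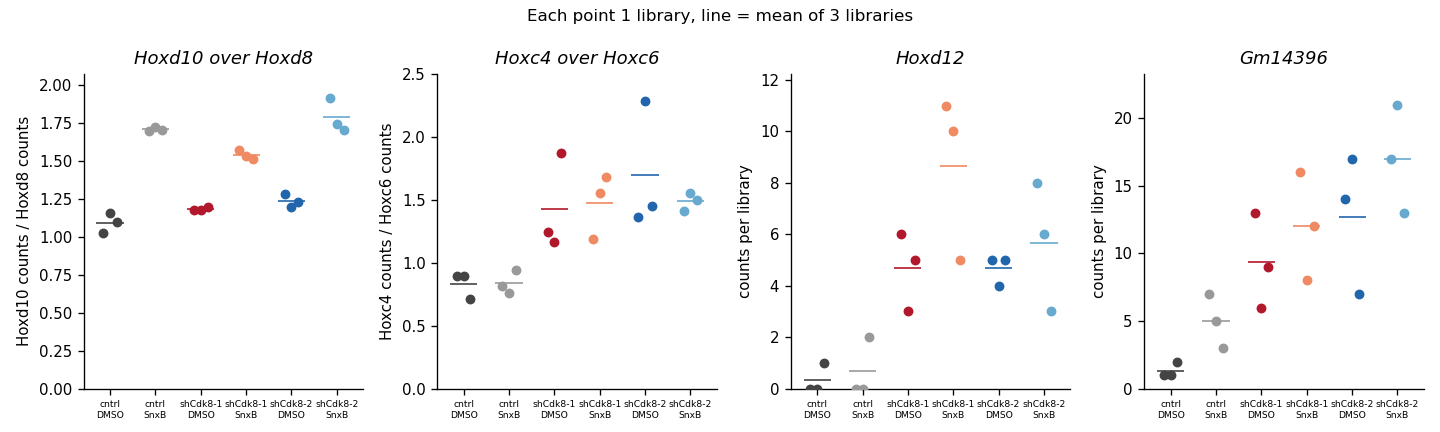
Ratio of Hoxd10 to Hoxd8 counts and of Hoxc4 to Hoxc6 counts, and the counts of Hoxd12 and of Gm14396, in each of the 18 libraries (points), with the mean of 3 libraries (lines). The Hoxd10 to Hoxd8 ratio is higher in SnxB than in DMSO in each line, and Hoxc4 to Hoxc6, Hoxd12 and Gm14396 are higher in the shCdk8 lines than in cntrl at the same treatment.

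The clusters also hold 46 other annotated genes, mostly antisense and other noncoding transcripts. Of these 32 had 0 counts in every library, 42 had at most 3 in every library, and 4 passed the filter: Gm14396, Hoxd3os1 and Gm28230 in HoxD and Gm11539 in HoxB. Gm14396 (chr2:74695520-74697365, plus strand) lies between Hoxd10 and Hoxd9. It had 1, 1 and 2 counts in cntrl in DMSO, 13, 6 and 9 in shCdk8-1 and 14, 17 and 7 in shCdk8-2, with no overlap. It was called at 2-fold, with log2 fold changes of 2.62 ± 0.58 (SE, adjusted p = 6.31e-04) and 2.99 ± 0.55 (adjusted p = 9.45e-05), against 12.5% and 11.0% of all genes. The ratios of summed counts were 6.63 (95% counting interval 2.32 to 26.0) and 8.61 (3.10 to 33.2). No cntrl library reached 10 counts of Gm14396, so it passed the filter only through the shCdk8 libraries, where it was high.

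In SnxB Gm14396 had 7, 5 and 3 counts in cntrl, 16, 8 and 12 in shCdk8-1 and 17, 21 and 13 in shCdk8-2. It was again called, at 1.37 and 1.85 on the log2 scale (adjusted p = 0.00710 and 3.16e-04), against 12.8% and 10.8% of all genes. Hoxd3os1 (chr2:74703248-74716130, minus strand) lies opposite to Hoxd8, which falls within its span but overlaps none of its exons. It had 56, 50 and 58 counts in cntrl in DMSO, 70, 35 and 64 in shCdk8-1 and 92, 95 and 97 in shCdk8-2. It rose by 0.65 in shCdk8-2 on the log2 scale (adjusted p = 0.00181), and shCdk8-2 lay above both other lines. In SnxB the rise was 0.47 (adjusted p = 0.0231). In shCdk8-1 the log2 fold change was -0.04 with an interval of -0.41 to 0.33. Counting used strand per the file headers. For Gm28230 and Gm11539 no comparison passed.

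The TALE family holds the Pbx, Meis and Pknox partners of Hox proteins. Of its 9 listed genes 7 were tested, and in DMSO 2 were higher and 3 lower in shCdk8-1 and 1 higher and 3 lower in shCdk8-2 at the adjusted p, with a median log2 fold change of -0.09 and -0.17 (0.01 and 0.01 over all genes). Of all genes tested 59.6% and 57.1% passed in these comparisons. In each line 0 of the 7 were called higher and 1 lower at 2-fold, against 12.5% and 11.0% of all genes called.

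All 28 Polycomb genes were tested, of which 10 were higher and 6 lower in shCdk8-1 and 12 higher and 6 lower in shCdk8-2 at the adjusted p in DMSO, against 59.6% and 57.1% of all genes. Only Cbx2, a chromodomain subunit, was called at 2-fold, in both lines, against 12.5% and 11.0% of all genes, from 1.20 CPM to 4.44 and 3.20, log2 fold changes of 1.92 and 1.42 (adjusted p = 9.91e-08 and 1.30e-05). Of 18 Trithorax and MLL genes 9 were higher and 2 lower in shCdk8-1, and 5 higher and 3 lower in shCdk8-2, against the same shares of all genes, with 0 called at 2-fold in either line. The highest of them, Hcfc1, Aff4, Ash2l and Psip1, stood at 230 to 411 CPM in cntrl in DMSO, and Psip1, known as a chromatin reader, rose in both lines by 0.15 and 0.14 on the log2 scale (adjusted p = 0.00108 and 0.00204). With SnxB in cntrl 0 of 28 Polycomb and 0 of 18 Trithorax genes passed the adjusted p, against 5.54% of all genes, so few would be reached at that share.

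Of 20 genes of retinoic acid signalling and the caudal family, known regulators of Hox genes in the embryo, 9 were tested. In DMSO 4 were higher and 2 lower in shCdk8-1 and 3 higher and 2 lower in shCdk8-2 at the adjusted p, against 59.6% and 57.1% of all genes. At 2-fold 3 were called higher and 1 lower in shCdk8-1 and 2 higher and 0 lower in shCdk8-2, against 12.5% and 11.0% of all genes. Stra6, a retinol transporter, rose from 0.700 CPM in cntrl to 30.3 and 10.0, by 5.41 and 3.81 on the log2 scale (adjusted p = 6.38e-18 and 3.03e-14). Crabp2, which carries retinoic acid to its receptor, rose from 0.374 CPM to 1.66 and 0.891, by 2.10 and 1.21 (adjusted p = 1.91e-06 and 0.00269). In SnxB in cntrl Crabp2 fell by 1.85 (adjusted p = 0.0366), against 0.305% of all genes called at 2-fold in that comparison. The cntrl level in DMSO was already near the 0.130 to 0.185 CPM of 3 counts, so this fall rests on few counts. The other 2 calls, in shCdk8-1, were Cdx1, a caudal gene (log2 fold change 1.01, adjusted p = 0.0147), and Cyp26b1, which breaks down retinoic acid, at 49.2 CPM in cntrl and 23.6 in shCdk8-1 (log2 fold change -1.07, adjusted p = 1.71e-10). Cyp26b1 also fell in shCdk8-2, by 0.77 (adjusted p = 1.97e-08), and both genes were named after their values were seen.

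Of 20 listed genes that flank the clusters 19 were found, 14 were tested and 0 were called at 2-fold by edgeR in either shCdk8 line in DMSO, while 4 were higher and 4 lower in shCdk8-1 and 5 higher and 5 lower in shCdk8-2 at the adjusted p. Of all genes 12.5% and 11.0% were called at 2-fold and 59.6% and 57.1% passed the adjusted p. Cbx5, beside HoxC, was at 462 CPM in cntrl and rose by 0.22 and 0.32 on the log2 scale (adjusted p = 0.00378 and 2.00e-04). Nfe2l2, near HoxD, was at 156 CPM and fell by 0.18 and by 0.12 (adjusted p = 2.58e-04 and 0.0104). Cbx1, near HoxB, was at 121 CPM and rose by 0.18 and 0.15 (adjusted p = 0.00318 and 0.0114). Hibadh, near HoxA, was at 105 CPM, with log2 fold changes of -0.03 (adjusted p = 0.461) and 0.14 (adjusted p = 0.00260).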

How the data were processed

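Total RNA of 18 libraries was sequenced as 50-base single-end reads. Per the file headers and notes, the authors trimmed with Trimmomatic, aligned with STAR and deposited raw counts per gene from featureCounts 1.5.1, run strand-specifically over exons of GENCODE M13 (GRCm38). The deposited counts were read through the labels, and 50376 of 50686 genes were given a symbol from a later GENCODE release. Genes passing edgeR's filterByExpr (minimum count 10, minimum total 15) were scaled by TMM. They were fitted over all 18 libraries with 1 term per group, and tested with glmQLFit and glmQLFTest under Benjamini-Hochberg adjustment. Genes with an adjusted p below 0.05 passed, and those that also changed over 2-fold were called. CPM used TMM-scaled library sizes, and RPKM is CPM per kilobase of exon.

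Values in each library are given for Hox genes that passed in any comparison and the highest of each cluster. For other lists the genes called in both shCdk8 lines are named, or else the highest. The members and lists were chosen with earlier results of these data known. RefSeq windows (GRCm38.p6) matched 22 of the 39 genes. Alternatives were DESeq2, its size factors, library totals, no low-count filter, more than 1 CPM in at least 3 libraries, the replicate number as a block, only the groups compared, and each library left out. The fit was tested on simulated data. Header numbers of shCdk8-2 libraries differ from the labels, which were used. R 4.3.3, edgeR 4.0.16, limma 3.58.1 and DESeq2 1.42.0 were used. A few genes of the set and lists are not reported here.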

Additional observations from a re-analysis of the deposited data

How the results depend on the processing

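At the adjusted p alone, with no limit on the fold change, 4 of 17 Hox genes passed in shCdk8-1 and 4 in shCdk8-2 against cntrl in DMSO, and 3 between these lines. Of all genes tested 59.6%, 57.1% and 21.1% passed there. With SnxB against DMSO 2 Hox genes passed in cntrl, 1 in shCdk8-1 and 2 in shCdk8-2, against 5.54%, 1.48% and 2.05% of all genes. In SnxB 5, 3 and 4 passed for the same comparisons of lines, against 60.6%, 56.6% and 20.9%. Without the low-count filter 1, 1, 3 and 1 Hox genes were called at 2-fold in shCdk8-1 and shCdk8-2 in DMSO and in SnxB. Of all genes in that fit 7.22%, 6.27%, 7.53% and 6.17% were called. With 1 library left out the counts were 1 in each setting for both lines in DMSO and for shCdk8-2 in SnxB, and 0 to 1 for shCdk8-1 in SnxB, where 0 came without shCdk8-1 SnxB replicate 1 or 2. The called gene was Hoxd12 in each of these settings with a call, and it enters the test because a smaller group lowers the filter. The count was 0 with DESeq2, its size factors, library totals, the CPM filter, the groups compared alone and the replicate block. Deviations of same-numbered libraries correlated at -0.16 to 0.247, over 0.1 in 2 of 27 pairs, so the numbers were not taken to pair the libraries. Over the 39 pairs of Hox gene and comparison refitted under these alternatives, 64 refits lost and 18 gained an adjusted p under 0.05, and 0 changed direction. Genes below about 10 counts per library, most of HoxA among them, could show only large changes at this depth.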
